A study of Mus musculus with 54 samples.

Results

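The expression of 38 genes of the cardiac contractile apparatus was described in the hearts and livers of mice with altered fidelity of mitochondrial protein synthesis. The genes encode proteins of the sarcomere, the intermediate filaments and intercalated disc attached to it, and calcium handling by the sarcoplasmic reticulum. They were chosen by name, and all 38 were found among the 54356 genes listed for each tissue. In the heart all 38 were kept by the filter on low values (mean normalized count of 10 or more in that tissue), and in the liver 37 were. Ryr2 was the member left out there.

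In the sarcomere, thick filaments of myosin pull on thin filaments of actin, and troponin and tropomyosin on the thin filament let this happen when calcium is present. Titin spans from the Z-disc, where thin filaments are anchored, to the M-band, where thick filaments are held together. Each beat begins with calcium release from the sarcoplasmic reticulum through the ryanodine receptor, RYR2, and ends when the calcium pump SERCA2, encoded by Atp2a2 and restrained by phospholamban, returns it. The adult mouse ventricle uses alpha myosin heavy chain, encoded by Myh6, and a shift toward the beta chain, encoded by Myh7, is widely used as a mark of cardiac stress.

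The mice were C57BL/6, 20 weeks old, and on a high-fat diet with 42% of its energy from fat. They were Mrps12+/+ (WT), Mrps12ep/ep (EP, error-prone) or Mrps12ha/ha (HA, hyper-accurate), 3 mice per genotype. Both mutant groups were homozygous for an amino acid substitution in MRPS12, a protein of the decoding centre of the mitochondrial ribosome. All groups ate the same diet, so no effect of diet was measured. Total RNA of the heart and of the liver was sequenced from 3 mice of each genotype, in 3 technical libraries per mouse and tissue and 54 libraries in all. The labels number the mice within each tissue and do not say whether a heart and a liver with the same number came from the same mouse. The reads behind each mouse, recovered from the steps between low values, numbered 11202864 to 51480512 in the heart and 21238166 to 81518015 in the liver, and the shallowest of all was the heart of HA mouse 2. The levels are normalized counts, reads scaled by the authors to make the mice of one tissue comparable. In whole tissue, fewer cells of a type cannot be told apart from less RNA per cell.

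The members were among the most abundant transcripts of the heart. Together they took from 12.5% to 15.8% of all normalized counts in each of the 9 hearts. Per kilobase of transcript, the mean heart level was highest for Myl2, the ventricular regulatory light chain, at 339809 normalized counts per kilobase. Tnnt2 (cardiac troponin T) followed at 278038, Myh6 at 215056 and Actc1 (cardiac actin) at 210850 normalized counts per kilobase. The lowest were Ttn (titin) at 1124 and Nebl (nebulette) at 951 normalized counts per kilobase. Myh7 stood at 1934 normalized counts per kilobase, far below Myh6.

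The myosin heavy chain members also carry microRNA genes, which lie within the transcription units of Myh6, Myh7 and Myh7b on the same strand. Their mature sequences from RefSeq (GRCm38.p6) are shown because the levels of these host genes are described below. The libraries were read for genes, and the mature microRNAs were not measured. The seed, bases 2 to 8, is in capitals.
mmu-miR-208a-3p (Myh6, chr14:54949072-54949093, minus strand): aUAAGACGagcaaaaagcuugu
mmu-miR-208b-3p (Myh7, chr14:54975710-54975731, minus strand): aUAAGACGaacaaaagguuugu
mmu-miR-499-5p (Myh7b, chr2:155622893-155622913, plus strand): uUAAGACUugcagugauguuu
The seeds of miR-208a-3p and miR-208b-3p are the same, and 19 of their 22 bases match. The seed of miR-499-5p differs from it.

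The 250 bases before the RefSeq start site are shown for the 2 members that were lowest and 2 of the members that were highest in HA against WT hearts. Promoters were found for 31 of the 38 members. Capitals mark matches, on either strand, to letters of known promoter elements. The M-CAT element, which TEAD factors bind, was searched as CATTCC. The element of GATA factors was searched as the letters AGATAA, the E-box as CAGCTG, and the TATA box of the core promoter as TATAAA. The MEF2 consensus was the last. In the sequences shown, matches did not overlap.
Ankrd1 (chr19:36119845-36120094, minus strand): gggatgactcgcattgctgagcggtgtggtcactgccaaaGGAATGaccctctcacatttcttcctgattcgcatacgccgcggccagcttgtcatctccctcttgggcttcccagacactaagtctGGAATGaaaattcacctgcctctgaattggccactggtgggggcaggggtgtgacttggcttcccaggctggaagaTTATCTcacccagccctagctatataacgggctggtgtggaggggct
Ryr2 (chr13:12106946-12107195, minus strand): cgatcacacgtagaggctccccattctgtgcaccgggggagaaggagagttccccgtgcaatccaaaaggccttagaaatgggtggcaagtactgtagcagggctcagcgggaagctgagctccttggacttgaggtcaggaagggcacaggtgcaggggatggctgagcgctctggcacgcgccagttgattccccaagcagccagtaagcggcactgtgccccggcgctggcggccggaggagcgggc
Myh6 (chr14:54966608-54966857, minus strand): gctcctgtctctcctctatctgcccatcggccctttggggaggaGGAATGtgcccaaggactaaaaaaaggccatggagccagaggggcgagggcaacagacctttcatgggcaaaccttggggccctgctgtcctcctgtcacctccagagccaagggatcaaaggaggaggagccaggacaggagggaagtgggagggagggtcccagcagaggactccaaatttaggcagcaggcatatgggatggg
Myh7b (chr2:155610993-155611242, plus strand): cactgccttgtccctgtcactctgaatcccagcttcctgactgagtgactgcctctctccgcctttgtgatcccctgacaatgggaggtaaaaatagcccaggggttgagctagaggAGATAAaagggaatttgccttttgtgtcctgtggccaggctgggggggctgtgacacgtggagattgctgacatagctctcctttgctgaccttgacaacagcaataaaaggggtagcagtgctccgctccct
The Ankrd1 sequence held 3 matches, a pair of M-CAT matches and a GATA match near the start. Myh6 held 1 M-CAT match, Myh7b 1 GATA match, and Ryr2 had no match in this window. The 31 members have 43 promoters in the RefSeq table, since some have several starts. The M-CAT letters were in 20.9% of these 43 and in 12.6% of all 32851 promoters. For the GATA letters the shares were 20.9% and 9.99%, for MEF2 14% and 3.2%, for the E-box 20.9% and 13%, and for the TATA box 9.3% and 12.4%.

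The hearts did not differ evenly by genotype. HA mice 1 and 3 lay away from the other 7 hearts in many members, and HA mouse 2 lay near the WT and EP hearts. In HA mouse 1, 19 of the 38 members were below all 6 WT and EP hearts and 11 were above them, against 31% and 30.5% of all 16057 tested genes. In HA mouse 3, 18 members were below and 8 above, against 29.1% of all genes on each side. In HA mouse 2, 1 member was below, Ankrd1, and 9 were above, against 19% and 18.4% of all genes. The hearts of HA mice 1 and 3 each had 17 members lower and 5 higher by more than 0.5 on the log2 scale than the mean of the WT hearts. In both hearts this is 57.9% of the members, against 43.8% of all tested genes in HA mouse 1 and 39.9% in HA mouse 3. In HA mouse 2 the counts were 1 and 1, which is 5.26% of the members against 20.7% of all tested genes. The library labelled HA mouse 2 shared a feature with the other HA hearts, since 4 genes outside the list, 3 of them processed pseudogenes, had 0 reads in all 3 HA hearts and at least 10 reads in each of the other 6 hearts. Results are given with all 3 HA hearts and, where it matters, without HA mouse 2.

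**Figure D1:**
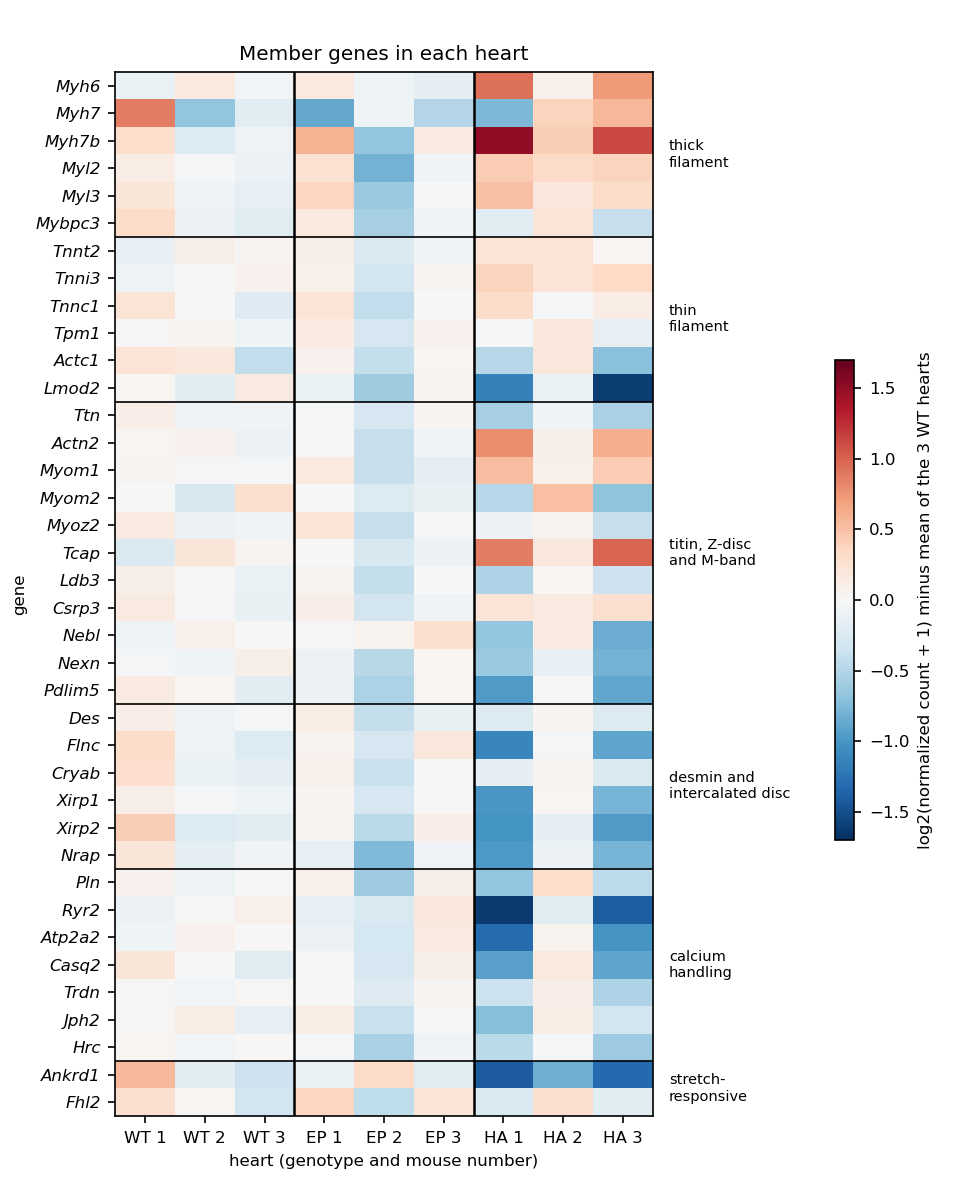
Level of each of the 38 members (rows, grouped by role) in each of the 9 hearts (columns), as log2(normalized count + 1) minus the mean of the 3 WT hearts. HA mice 1 and 3 show the same mix of higher (red) and lower (blue) members, while HA mouse 2 has 1 member lower and 1 higher than the WT mean by more than 0.5, and EP mouse 2 is a little lower in most members.

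Markers of other cells moved with some of these hearts. The summed level of 5 erythroid genes, haemoglobins and the haem enzyme gene Alas2, was 464387 and 1411965 normalized counts in HA mice 1 and 3. It was 199245 in HA mouse 2 and 91865 to 235641 in the 6 WT and EP hearts. The 7 atrial genes (Nppa, Myl4, Myl7, Sln, Bmp10, Sbk2 and Dkk3) summed to 171841 and 126267 normalized counts in WT mice 2 and 3 and to 400538 and 97964 in EP mice 2 and 3. They summed to 8446 in WT mouse 1, 1933 in EP mouse 1, and 5080 to 11058 in the HA hearts. Atrial genes were thus low in all 3 HA hearts, including HA mouse 2. The 6 endothelial genes summed to 50878 and 44083 in HA mice 1 and 3 and to 28301 to 40323 in the other hearts. Fibroblast genes (6 listed) summed to 37971 to 54576 in all hearts but EP mouse 2, where they summed to 78069. Smooth muscle genes (5 listed) were highest in WT mice 2 and 3 and EP mouse 2, at 33684 to 40176, and 12784 to 22087 in the other hearts. Hepatocyte genes (8 listed) summed to 16895 in HA mouse 2 and to 2809 and 4802 in HA mice 1 and 3. They summed to 17337, 4691 and 6887 in WT and to 13751, 138 and 998 in EP hearts. Brown adipocyte genes (4 listed) summed to 16273 in WT mouse 3 and to 1110 to 2282 in the other hearts. The part of these cells in the results below was not tested.

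**Figure D2:**
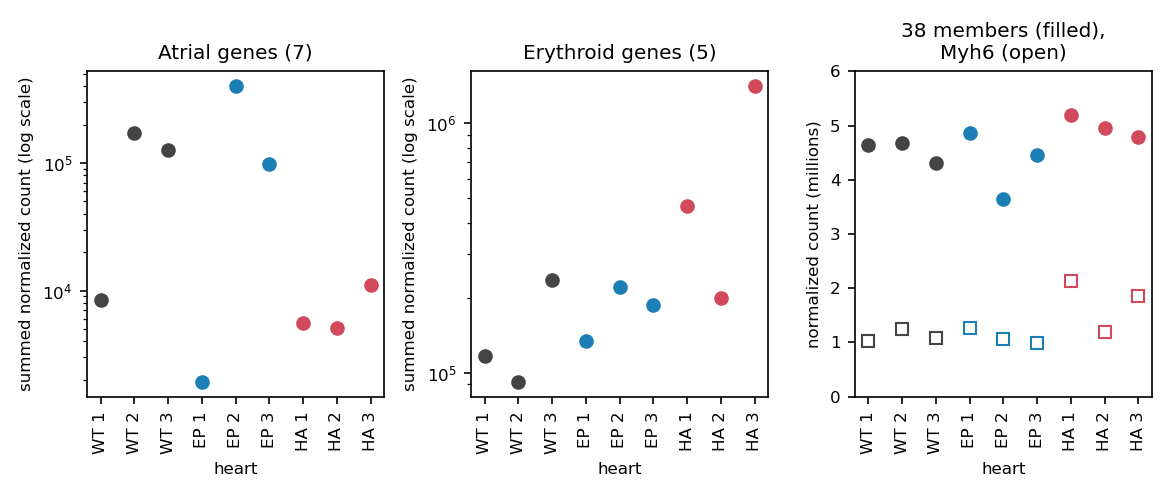
Summed normalized counts of 7 atrial genes (left, log scale), 5 erythroid genes (middle, log scale), and the 38 members with Myh6 alone (right, linear scale), for each heart. The erythroid sum is highest in HA mice 1 and 3, the atrial sum is low in WT mouse 1, EP mouse 1 and all HA mice, and the members' sum stays between 3651567 and 5197503 while Myh6 is highest in HA mice 1 and 3.

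HA and WT hearts were compared first, which asks how the hyper-accurate ribosome relates to these genes. With all 3 HA hearts, 25 members were lower and 13 higher, and the median was -0.24 on the log2 scale, against -0.02 over all tested genes. The lowest was Ankrd1 and the highest Myh7b. No member passed an adjusted p under 0.05 (limma), as did 0.0311% of all tested genes. The adjusted p of the members ran from 0.186 to 0.985, and limma-voom on the recovered reads also called 0 members and 0.0187% of all genes. At an unadjusted p under 0.05 there were 11 members, 2 higher and 9 lower, which is 28.9% of them against 19.7% of all tested genes (9.64% higher and 10.1% lower). The groups did not overlap for 6 higher members (Actn2, Csrp3, Myh7b, Myl2, Myom1 and Tnni3), against 11.1% of all genes. They did not overlap for 3 lower members (Ankrd1, Nexn and Ryr2), against 10% of all genes.

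Without HA mouse 2, 17 of the 38 members passed, 44.7% against 27% of all tested genes. Without HA mouse 1 or HA mouse 3 instead, 0 members passed. HA mouse 2 had been seen to lie near the WT hearts in these same members, so the calls without it describe HA mice 1 and 3 against WT and are not independent evidence of a difference between the genotypes. Of these, 3 rose (Myh7b, Tcap and Actn2), where 12.2% of all genes rose, and 14 fell, where 14.8% of all genes fell. The median over the members was then -0.44. With array weights, which give each mouse a weight by how well it fits its group, 19 members passed, 4 higher and 15 lower, against 34.7% of all genes (16.1% higher and 18.6% lower). Of the 17 called without HA mouse 2, only Myom2 did not pass with array weights. Myom1 (higher), Hrc and Ttn (lower) passed only with array weights. HA mouse 2 had the smallest of those weights, 0.167, and HA mice 1 and 3 had 0.713 and 1.81. The weights were taken from these same data, so these calls are not independent evidence either. The calls below without HA mouse 2 are limma adjusted p-values over all 16057 genes, from 2 HA hearts against 3 WT hearts, and assume that those 2 vary like the other groups.

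**Figure D3:**
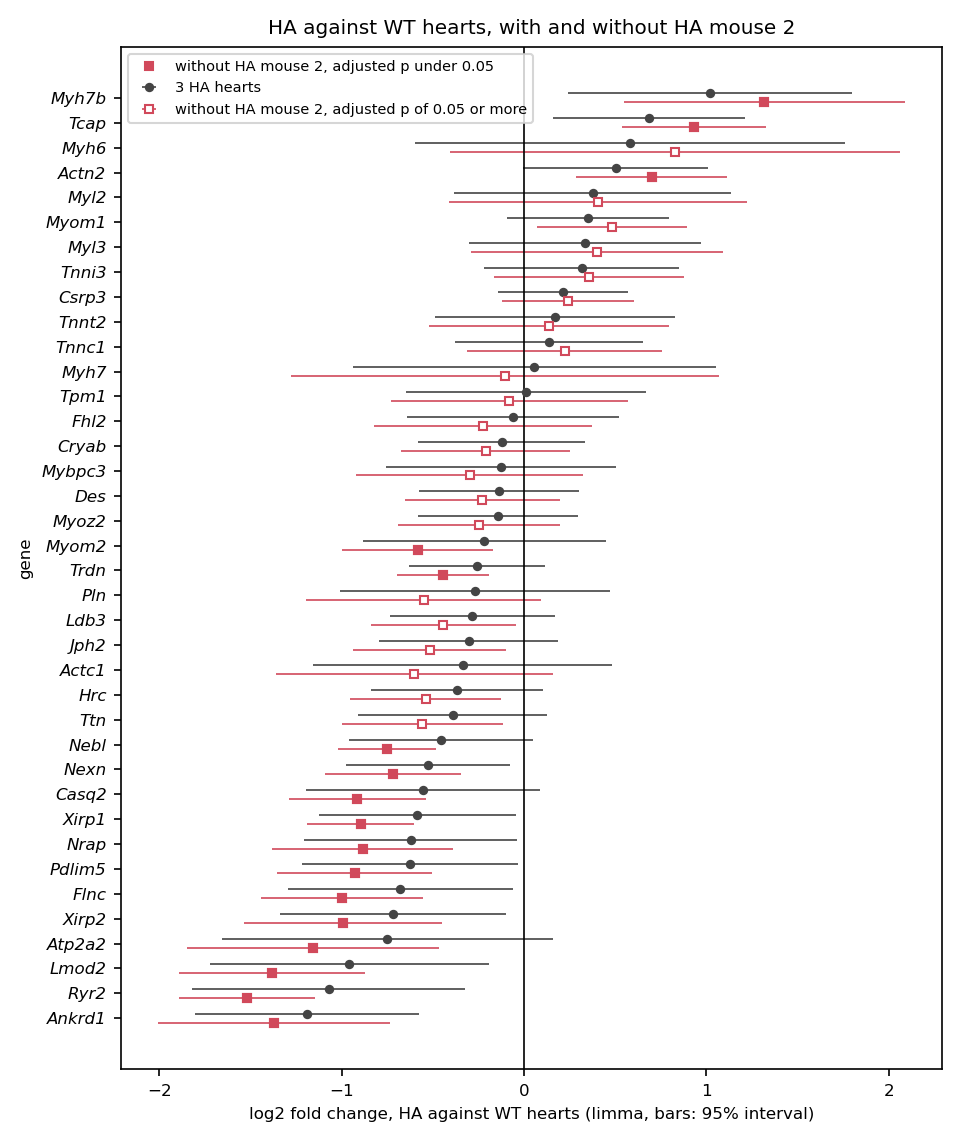
The log2 fold change of each member in HA against WT hearts (horizontal axis; bars are 95% intervals from limma), with all 3 HA hearts (grey circles) and without HA mouse 2 (red squares, filled where the adjusted p is under 0.05). With 3 HA hearts none of the members passes the threshold, and without HA mouse 2 most estimates move away from 0, with 17 members filled. Tnnt2 moves toward 0, and Myh7 and Tpm1 change sign.

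Among the 6 thick filament members, 5 were higher and 1 lower in HA than in WT hearts, with a median log2 fold change of 0.35. Myh6 had 1031675, 1248721 and 1083724 normalized counts in WT mice 1 to 3. It had 1256398, 1054315 and 994852 in EP mice and 2130354, 1185571 and 1846145 in HA mice 1 to 3. HA mice 1 and 3 were above all other hearts, and HA mouse 2 was within the WT range. Myh6 had a log2 fold change of 0.58 (SE 0.52, limma adjusted p = 0.525), and without HA mouse 2 it was 0.83 (adjusted p = 0.286). In each heart Myh6 ranked first or second among all genes, and under quantile normalization, which gives equal ranks equal values, its log2 fold change was 0.00.

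Myh7b encodes a slow-type myosin heavy chain that is related to Myh7 and hosts miR-499. Its level was 8132, 5637 and 6252 normalized counts in WT, 9933, 4156 and 7276 in EP, and 18809, 8834 and 14380 in HA hearts. Every HA heart was above every WT heart, but HA mouse 2 was below EP mouse 1. For Myh7b it was 1.02 (SE 0.35, adjusted p = 0.213), 2.03-fold, and without HA mouse 2 it was 1.32 (adjusted p = 0.0226). Myh7 itself varied more within genotypes than between them. It had 22338, 7614 and 10615 normalized counts in WT, 6682, 11628 and 8587 in EP, and 7146, 15804 and 18010 in HA hearts, a log2 fold change of 0.06 (SE 0.44, adjusted p = 0.948). The direction for Myh7 turned when any 1 of 4 mice was left out. Transcripts of Myh6, Myh7 and Myh7b are similar in sequence, and reads shared between them were assigned by the authors' quantification. Myl2 had 283021 ± 23646 normalized counts in WT and 366728 ± 14167 in HA hearts (SD, n = 3), which differ by 0.38 on the log2 scale (adjusted p = 0.523). Myl3, the essential light chain, and Mybpc3, cardiac myosin binding protein C, had log2 fold changes of 0.33 and -0.13, and neither passed without HA mouse 2.

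The thin filament members were split, 4 higher and 2 lower. Tnnt2 had 325068 ± 27165 normalized counts in WT and 365464 ± 28682 in HA hearts, which differ by 0.17 on the log2 scale (adjusted p = 0.75). For Tnni3 (cardiac troponin I), the levels were 160462, 172823 and 179062 in WT and 221120, 200821 and 215860 in HA hearts. The HA hearts lay above all WT and EP hearts for Tnni3, yet the log2 fold change of 0.32 (SE 0.24) had an adjusted p of 0.442, and 0.278 without HA mouse 2. Actc1 stood at 393928, 379745 and 250191 in WT and 238389, 382697 and 204155 in HA hearts, with overlap between the groups and a log2 fold change of -0.34 (adjusted p = 0.6). Lmod2, leiomodin 2, which elongates thin filaments, had 26699, 22830 and 28999 in WT, 23984, 17066 and 26890 in EP, and 11707, 24097 and 8541 in HA hearts. HA mice 1 and 3 were below every other heart and HA mouse 2 was within the WT range. For Lmod2 it was -0.96 (SE 0.34, adjusted p = 0.214), and without HA mouse 2 it fell by 1.38 on the log2 scale (adjusted p = 0.00512). It was the only thin filament member that passed in that fit. Tnnc1 (cardiac troponin C) and Tpm1 (alpha-tropomyosin) had log2 fold changes of 0.14 and 0.01 with all HA hearts.

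Among the 11 members of titin, the Z-disc and the M-band, 4 were higher and 7 lower in HA than in WT hearts. Tcap, telethonin, which caps titin at the Z-disc, had 35394, 48231 and 43357 normalized counts in WT, 42207, 34880 and 39363 in EP, and 77076, 47989 and 83351 in HA hearts. HA mouse 2 lay just under WT mouse 2, and HA mice 1 and 3 were above all hearts. For Tcap it was 0.69 (SE 0.24, adjusted p = 0.213), and without HA mouse 2 Tcap rose by 0.93 (adjusted p = 0.0075), 1.91-fold. Actn2, the Z-disc alpha-actinin, had 69637, 71350 and 63204 in WT and 117171, 73101 and 104364 in HA hearts. All HA hearts were above all WT and EP hearts, though HA mouse 2 only by a little, and Actn2 rose by 0.70 without that mouse (adjusted p = 0.0234). The M-band gene Myom1 was also higher in every HA than in every WT heart, with a log2 fold change of 0.35 (adjusted p = 0.323).

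Ttn had 143725, 126580 and 127557 normalized counts in WT and 89681, 126913 and 90317 in HA hearts. Its log2 fold change was -0.39 (SE 0.23, adjusted p = 0.338) with all HA hearts and -0.56 (adjusted p = 0.0647) without HA mouse 2. With array weights it was -0.50 (limma adjusted p = 0.0311). Pdlim5, Nexn, Nebl and Myom2 were the members of this group that fell without HA mouse 2. Pdlim5, a Z-disc adaptor, fell by 0.93 (adjusted p = 0.0098). Nebl fell by 0.75 (adjusted p = 0.00469) and Nexn (nexilin) by 0.72 (adjusted p = 0.0149). Myom2 fell by 0.58 (adjusted p = 0.0446), and its heart level was highest of all in HA mouse 2, at 65307 normalized counts. Ldb3, Myoz2 and Csrp3 did not pass in either fit.

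All 6 members of the intermediate filament and intercalated disc group were lower in HA than in WT hearts, with a median log2 fold change of -0.60. Without HA mouse 2, 4 of them fell. Flnc, the actin crosslinker filamin C, fell by 0.999 (adjusted p = 0.00883), Xirp2 by 0.99 (adjusted p = 0.0182), Xirp1 by 0.90 (adjusted p = 0.00392) and Nrap by 0.88 (adjusted p = 0.0198). XIRP1 and XIRP2 bind actin at the intercalated disc. Xirp1, for example, had 12933, 11833 and 11491 normalized counts in WT and 6054, 12404 and 6948 in HA hearts, so HA mouse 2 was within the WT range. Des (desmin, the muscle intermediate filament) and Cryab (a small heat shock protein) had log2 fold changes of -0.14 and -0.12 and passed in neither fit.

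All 7 calcium handling members were lower in HA than in WT hearts, with a median log2 fold change of -0.37. Ryr2 had 47154, 51018 and 53594 normalized counts in WT, 46025, 42377 and 56980 in EP, and 16285, 44622 and 19113 in HA hearts. Every HA heart was below every WT heart, and HA mice 1 and 3 were far below HA mouse 2. The log2 fold change was -1.07 (SE 0.33, adjusted p = 0.21), and without HA mouse 2 Ryr2 fell by 1.52 (adjusted p = 0.00244), which is 2.86-fold. The calcium pump gene Atp2a2 had 402712, 447688 and 427212 in WT, 398167, 346966 and 471217 in EP, and 172303, 445388 and 211652 in HA hearts. HA mice 1 and 3 were below all other hearts, while HA mouse 2 was within the WT range. Its log2 fold change was -0.75 (SE 0.40, adjusted p = 0.307), and it fell by 1.16 without HA mouse 2 (adjusted p = 0.0246).

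Casq2 (calsequestrin, which stores calcium in the sarcoplasmic reticulum) fell by 0.91 without HA mouse 2 (adjusted p = 0.00702), and Trdn (triadin, which links it to the ryanodine receptor) fell by 0.44 (adjusted p = 0.0205). Pln had 210112, 188275 and 200086 normalized counts in WT, 210827, 129379 and 213830 in EP, and 126923, 245026 and 145842 in HA hearts. HA mouse 2 had the highest Pln of all hearts, and the log2 fold change was -0.27 (SE 0.33, adjusted p = 0.643), or -0.55 without that mouse (adjusted p = 0.181). Jph2 (junctophilin 2) and Hrc, a calcium-binding protein of the sarcoplasmic reticulum, did not pass with or without HA mouse 2. Hrc passed with array weights (limma adjusted p = 0.0169).

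Ankrd1, a cofactor that binds titin and responds to stretch, was the member with the largest difference when all 3 HA hearts were used. Without HA mouse 2 the differences of Ryr2 and Lmod2 were larger, and with array weights those of Ryr2, Lmod2 and Myh7b were. Ankrd1 had 72529, 43435 and 38810 normalized counts in WT, 45968, 62099 and 43171 in EP, and 18604, 27933 and 19851 in HA hearts. All 3 HA hearts, HA mouse 2 included, were below all 6 others. The mean was 51591 ± 18280 in WT and 22129 ± 5065 in HA hearts (SD, n = 3). The log2 fold change was -1.19 (SE 0.27, unadjusted p = 0.00165, limma), but the adjusted p was 0.186, and it ran from 0.00461 to 0.527 over the alternatives. It passed with array weights and without HA mouse 2, where it fell by 1.37 (adjusted p = 0.0102). Fhl2, the other cofactor, had a log2 fold change of -0.06 (adjusted p = 0.907).

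**Figure D4:**
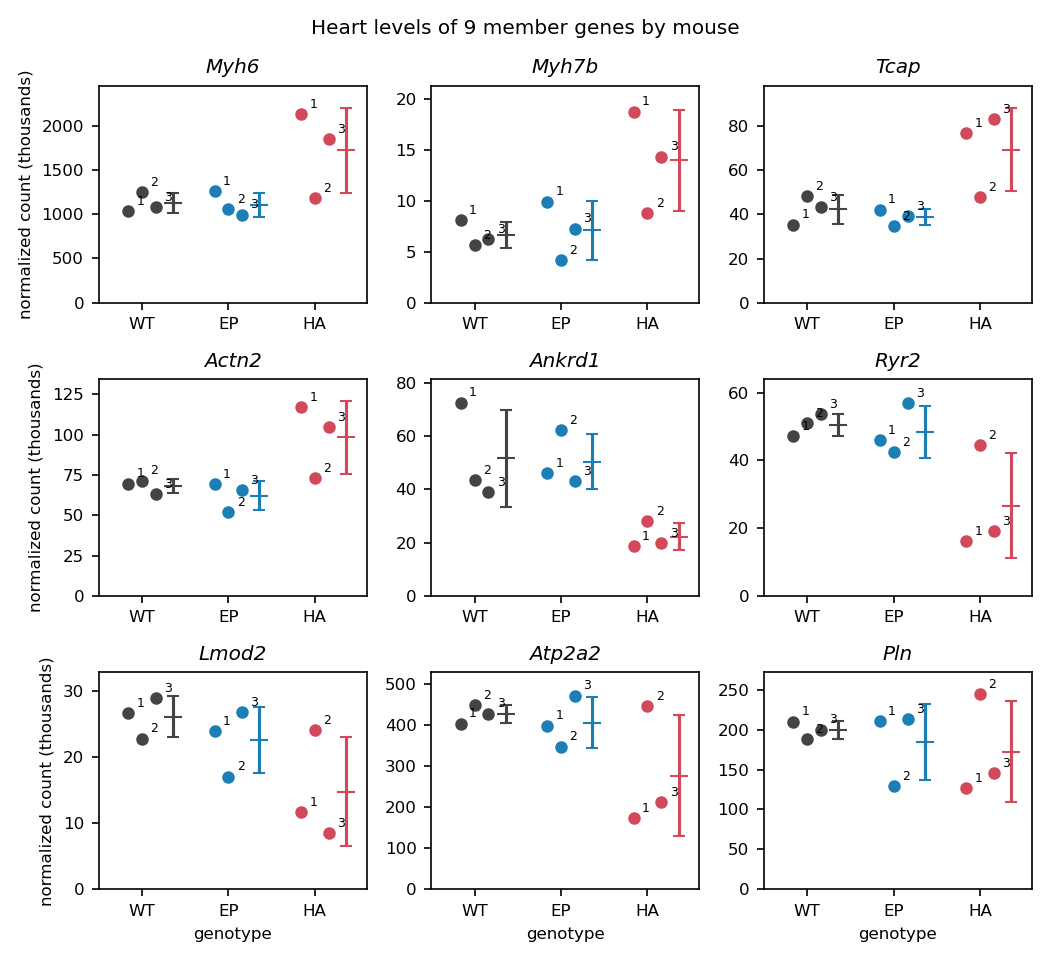
Normalized counts (in units of 1000, linear axes from 0) of 9 members in each heart, with mouse numbers beside the points and the mean and SD of each genotype (n = 3) to the right. In Ankrd1 all 3 HA mice lie below the WT and EP mice, and in the other genes HA mice 1 and 3 lie apart from HA mouse 2, as for Atp2a2 at 172303 and 211652 against 445388.

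HA and EP hearts were compared next, with the same HA hearts as above. With all of them, 14 members were higher and 24 lower, with a median of -0.11 against -0.02 over all tested genes. No member passed, as did 0.0249% of all genes (limma). By limma-voom 0 members and 0.0187% of all genes passed. At an unadjusted p under 0.05 there were 8 members, 4 higher and 4 lower, 21.1% against 17.9% of all genes (9.07% higher and 8.86% lower). Ankrd1 (-1.19, adjusted p = 0.227), Ryr2 (-1.0, adjusted p = 0.243) and Lmod2 (-0.73, adjusted p = 0.29) had the lowest log2 fold changes. Myh7b (0.997, adjusted p = 0.248), Tcap (0.80, adjusted p = 0.238) and Actn2 (0.64, adjusted p = 0.249) had the highest. The groups did not overlap for 5 higher members (Actn2, Csrp3, Myl2, Tcap and Tnni3), against 8.77% of all genes, or for 1 lower member (Ankrd1), against 7.82%. Without HA mouse 2, 16 members passed, 4 higher and 12 lower, which is 42.1% against 23.2% of all genes (10.4% higher and 12.9% lower). With array weights 20 members passed, 5 higher and 15 lower, against 39.3% of all genes. EP mouse 3 had a weight of 4.93 there and EP mice 1 and 2 had 0.704 and 0.47, so the EP side of this fit rests largely on EP mouse 3.

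EP and WT hearts differed little in these genes. The median log2 fold change over the members was -0.09, with 34 lower and 4 higher, and -0.01 over all genes. No member passed an adjusted p under 0.05, and 0% of all genes did (limma), while limma-voom called 0 members and 0.0125% of all genes. No member had an unadjusted p under 0.05, as did 1.69% of all genes. The groups overlapped for every member, while groups did not overlap for 4.4% of all genes on the higher side and 3.64% on the lower side. The most extreme were Myh7 (-0.48, SE 0.44), Nrap (-0.31, SE 0.26) and Lmod2 (-0.23, SE 0.34) among the lower members, and Nebl (0.11), Fhl2 (0.05) and Myh7b (0.02) among the higher ones. In EP mouse 2, 9 members were lower by more than 0.5 on the log2 scale than the WT mean and 0 were higher. That is 23.7% of the members, and 23.5% of all tested genes differed by as much. The median over the members was -0.38 in this heart. It was also the heart with the highest atrial sum, 400538, and without it the median of the members was 0.02. The part of the atrial content in this was not tested.

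Ratios within a heart do not depend on the scaling between hearts. The Myh7 count was 2.17%, 0.61% and 0.98% of the Myh6 count in WT mice 1 to 3, 0.532%, 1.1% and 0.863% in EP mice and 0.336%, 1.33% and 0.976% in HA mice. The ratios overlapped between all genotypes, and the log2 difference between HA and WT was -0.52 (exact two-sided permutation p = 0.5, n = 3 and 3). The Pln count was 52.2%, 42.1% and 46.8% of the Atp2a2 count in WT, 52.9%, 37.3% and 45.4% in EP, and 73.7%, 55% and 68.9% in HA mice. All 3 HA hearts were above all 6 others, HA mouse 2 among them. The log2 difference was 0.48 from WT and 0.55 from EP hearts, and both gave p = 0.1 in the exact permutation test, which is the smallest that 3 mice against 3 can give. Over the 6 ratio tests the adjusted p of both was 0.3.

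The other genes of the same systems were taken from 3 further lists. Of 28 other sarcomere genes, 26 were tested in the heart, and 21 were lower and 5 higher in HA than in WT hearts, with a median of -0.40 on the log2 scale and 0 called. Without HA mouse 2, 10 fell and 3 rose, where 14.8% of all tested genes fell and 12.2% rose. Mylk3, the cardiac myosin light chain kinase, had 17376 to 24163 in WT and 9885, 24037 and 12029 in HA hearts. Of 20 other calcium handling genes, 10 were higher and 10 lower with a median of -0.04. Without HA mouse 2, 7 of them fell and 1 rose, against the same shares of all genes. The sarcoplasmic reticulum gene Srl (sarcalumenin) had 35296 to 40516 in WT and 17728, 43646 and 21436 in HA hearts. Of 11 tested genes of the hypertrophy and fetal programme, which includes the members Ankrd1, Myh7 and Xirp2, 10 were lower and 1 higher, with a median of -0.72. None was called with all HA hearts, and 4 fell without HA mouse 2, against the same 14.8% of all genes. The 3 lists also hold atrial genes, Myl4 and Myl7 in the first, Sln in the second and Nppa in the last. Nppa, for example, had 7983, 78294 and 54983 normalized counts in WT and 4582, 4180 and 3885 in HA hearts. The part of atrial content in these counts was not tested.

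Base composition and transcript length were set beside the differences of HA from WT hearts. Across the 38 members, the log2 fold change of HA against WT and the GC content of the transcript had a Pearson correlation of 0.45, and 0.14 across all 16057 tested genes. With the log2 of transcript length the correlations were -0.34 and -0.11. Genes are not independent replicates, and all points share the same libraries. In single hearts, the correlation between GC content and the difference from WT over the members was 0.39 in HA mouse 1, 0.50 in HA mouse 3 and 0.25 in HA mouse 2, and from -0.33 to 0.18 in the WT and EP hearts. The part of base composition and length in the results was not tested.

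In the liver the same genes were measured at far lower levels. The 38 members took 0.0235% to 0.0661% of all normalized counts in a liver, and no member reached 10% of its heart mean as a mean over the livers. The levels of the tissues were scaled separately, so they are set side by side without a test. The most abundant was Atp2a2, whose pump is also made outside muscle. It had 12270, 9066 and 10219 normalized counts in WT, 9740, 10972 and 11739 in EP, and 6876, 8327 and 7297 in HA livers. Every HA liver was below every WT and EP liver. The log2 fold change of HA against WT was -0.48 (SE 0.13, limma adjusted p = 0.181) and that against EP was -0.53 (adjusted p = 0.417). Csrp3 (muscle LIM protein) was present in every liver, at 208 to 1699 normalized counts. Pdlim5, which is made in many tissues, had 1574 to 2424 and was the member nearest to its heart level, at 7.72% of the heart mean.

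Tpm1 was the second most abundant member in the liver, with 4140, 4034 and 2605 normalized counts in WT mice. It had 1325, 1249 and 1352 in EP and 1578, 1096 and 2675 in HA livers (EP against WT, limma adjusted p = 0.277). Des, Cryab and Myom1 were also found in every liver, from 215, 158 and 49.1 normalized counts upward. Many of the other members were high in only a few livers. WT mice 1 and 2 were high in members shared with skeletal muscle of all fibre types. Ttn, for example, had 2219 and 3593 normalized counts there, 4.9 in WT mouse 3, and 1.4 to 260 in the EP and HA livers. Ldb3, Tcap, Xirp2, Trdn, Hrc and Flnc were also highest in WT mice 1 and 2, and all but Flnc came next in HA mouse 3. Myl2, Myl3 and Tnnc1, which slow skeletal fibres share, were highest in HA mouse 3, at 889, 373 and 222.5 normalized counts. In WT mice 1 and 2 Myl2 had 153 and 316. Myh7, which slow skeletal fibres share with the heart, had 155 and 1803 normalized counts in WT mice 1 and 2 and 0.0 to 37.7 in the other livers. In WT mouse 2 this was 15% of the heart mean. In the same livers 10 genes of fast skeletal fibres, led by Atp2a1 and Myh4, summed to 22572 and 28809, and they summed to 32.2 to 165 in the other 7.

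HA mouse 3 was the liver with the highest levels of 6 of the 8 members listed as heart-restricted. Myh6 had 4289 normalized counts there, against 29.4, 0.8 and 1.6 in WT, 24.3, 41.9 and 264 in EP, and 140 and 0.7 in the other HA livers. Tnnt2 had 938, Actc1 699 and Tnni3 565 normalized counts in that liver, and at most 95.2, 46.6 and 54.7 in any other. Across these 8 members, the level in the liver of HA mouse 3 was 0.117% to 0.326% of the heart mean. In the liver of WT mouse 2 it was 0.0001% to 0.393%, and the upper value is that of Casq2. Casq2 and Myoz2, also on the list, were highest in WT mouse 2, at 129 and 104 normalized counts against 38.5 and 89.4 in HA mouse 3. In WT mouse 1 they had 67.9 and 72.1. They were thus high in the livers that were high in members shared with skeletal muscle, and the name of the list does not hold for them there. Over all 38 members the log2 levels in the liver of HA mouse 3 had a correlation of 0.78 with the heart means. The other 8 livers had correlations from -0.16 to 0.50. Its fast fibre sum was 32.2, the lowest of all livers. Ryr2 had 60.3 normalized counts there and 0.0 to 4.4 elsewhere.

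**Figure D5:**
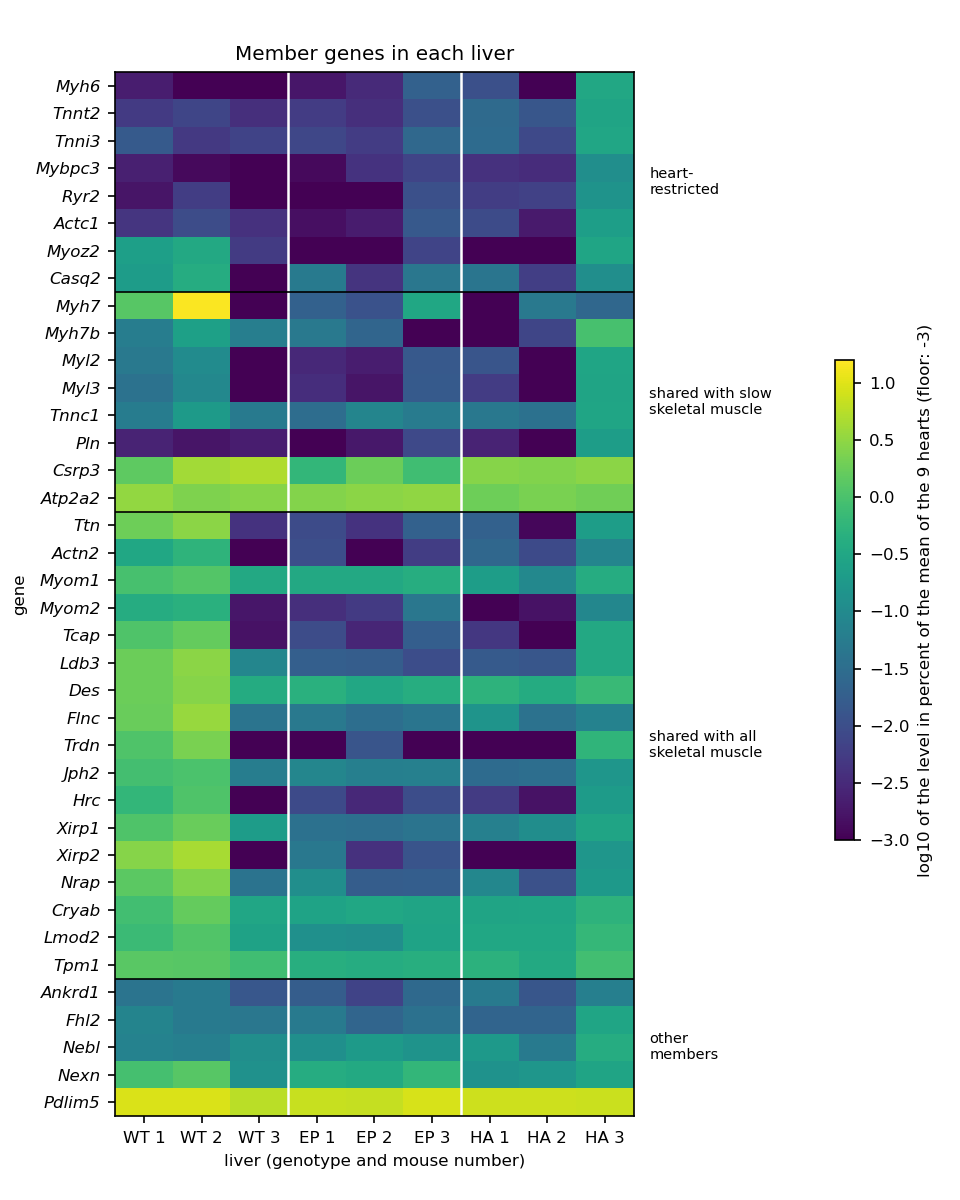
Level of each member (rows, grouped by where else the gene is used) in each liver (columns), as a percentage of the mean of the 9 hearts on a log10 colour scale. WT mice 1 and 2 are bright in the group shared with all skeletal muscle, and HA mouse 3 in the group listed as heart-restricted. Myl2, Myl3 and Tnnc1 of the slow skeletal group are brightest in HA mouse 3. In that group Casq2 and Myoz2 are also bright in WT mice 1 and 2. Atp2a2, Csrp3 and Pdlim5 are bright in all livers.

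No member passed the threshold in any liver comparison, and the adjusted p ran from 0.175 to 0.980 for HA against WT. In that comparison 1 gene was called among 15314, 0.00653%. At an unadjusted p under 0.05 there were 8 members, 2 higher and 6 lower, 21.6% against 14.1% of all genes (7.07% higher and 7.05% lower). The median over the members was -1.08, and -0.02 over all genes. The groups did not overlap for Mybpc3 and Tnnt2, both higher in HA livers, against 10% of all genes, or for Atp2a2, lower, against 9.81%. Mybpc3 had 0.0 to 2.8 normalized counts in WT and 4.8, 4.1 and 140 in HA livers, so it was kept by the filter through HA mouse 3 alone and its separation rests on a few reads. Against WT, the EP livers had a median of -1.65 over the members, with 10 members at an unadjusted p under 0.05, all lower, which is 27% against 9.74% of all genes (4.62% higher and 5.12% lower). The groups did not overlap for Nebl, higher, against 6.49% of all genes, or for Ldb3, Myh7b, Tpm1 and Xirp1, lower, against 6.28%. Nebl had 4.9 to 9.0 normalized counts in WT and 9.4 to 15.2 in EP livers, and it was kept by the filter through HA mouse 3, at 31.2. Myh7b had 5.6 to 22.6 in WT and 0.0 to 4.7 in EP livers, and it was also kept through HA mouse 3, at 87.3. Both separations rest on a few reads. Again 0.00653% of all genes were called. WT mice 1 and 2 had been seen to be high in muscle genes, so a fit without WT mouse 3 sets those livers against the mutant livers. Its calls are not independent evidence of a difference between the genotypes. Without WT mouse 3, the WT liver with low skeletal muscle genes, 4 members fell in each comparison with WT. They were Des, Flnc, Jph2 and Nexn in HA livers, where 0.496% of all genes were called (0.0653% higher and 0.431% lower). In EP livers they were Actn2, Des, Flnc and Xirp1, where 0.444% of all genes were called (0.0196% higher and 0.424% lower). For HA against EP the median was 0.80, 4 members had an unadjusted p under 0.05 (10.8% against 8.62% of all genes), and 0.00653% of all genes were called. This median was -0.42 without HA mouse 3 and 1.68 without HA mouse 2, so its sign depended on 1 liver. The groups did not overlap for 4 higher members (Csrp3, Lmod2, Tnnt2 and Xirp1), against 8.82%, and 2 lower members (Atp2a2 and Nexn), against 9.01%. For Xirp1 this rests on a few reads, with 3.6 to 4.4 normalized counts in EP and 7.1 to 30.2 in HA livers. The part of skeletal and heart muscle RNA in these liver differences was not tested.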

How the data were processed

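RNA of 54 libraries, 3 technical libraries from each of 9 hearts and 9 livers, was given as 1 value per mouse and tissue. The authors trimmed reads with Trim Galore 0.4.1, cutadapt 1.18 and FastQC 0.11.8, pooled replicates, quantified genes with Salmon 1.1.0 on GENCODE vM21 (GRCm38.p6), and scaled the counts of each tissue with DESeq2 after leaving out mitochondrial transcripts. The deposited normalized counts, rounded to 1 decimal, were treated as a score. The tables of fold changes and p-values were not used. The methods call the pooled replicates biologically independent, yet each table has 1 column per mouse, so a column was read here as the pooled technical libraries of 1 mouse. Columns were joined to mice through the sample names in the labels.

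Levels were tested as log2(normalized count + 1) with limma 3.58.1 (trend, all 9 mice of a tissue, genes with a mean of at least 10) and adjusted over 16057 heart or 15314 liver genes. Fold changes are on that scale. In every mouse 100% of low values were whole multiples of 1 read, which gave the reads. Ratios used exact permutation tests. The limma fit was tested on simulated data. The labels give the mice of a genotype separate replicate numbers.

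Levels in the heart were planned for Myh6, Myh7, Tnnt2, Tnni3, Actc1, Ttn, Atp2a2, Pln, Ryr2 and Ankrd1. They were also planned for the 3 members changed most upward and most downward in each heart comparison. Some of these were given as a mean with SD or without the EP hearts. In the heart, Nrap, Nebl and Fhl2 were given by fold change only. In the liver, levels were given for the most abundant of the heart-restricted and slow muscle lists. Some of those were a range or single livers. Other members shown with values were chosen after their values were seen. The members and lists were chosen with earlier results of these data known.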

Additional observations from a re-analysis of the deposited data

How the results depend on the processing

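The count of members called was 0 in all 6 comparisons, and stayed at 0 with a pseudocount of 0.1 or 8, with no filter or a minimum of 50, after quantile normalization or centring on the median, with only the 2 genotypes compared, and limma-voom on the recovered reads, which was chosen after seeing the data. With array weights it was 19 for HA against WT hearts and 20 for HA against EP hearts. Leaving out 1 mouse gave 0 to 17 for HA against WT hearts, 0 to 16 for HA against EP hearts, and 0 to 4 for each liver comparison with WT. The highest counts came without HA mouse 2 in the heart and without WT mouse 3 in the liver, and the cause was not tested. With 1 mouse left out, the Myh7 to Myh6 log2 difference ran from -0.94 to 0.0658 for HA against WT, -0.87 to 0.0445 for EP against WT, and -0.48 to 0.52 for HA against EP. The Pln to Atp2a2 difference ran from -0.19 to 0.0656 for EP against WT, and from 0.39 to 0.60 and 0.42 to 0.67 for HA against WT and EP. Among the members named for a comparison, the sign turned for Myh7 in HA against WT hearts (-0.28 to 0.50). It turned for Myh7b (-0.26 to 0.37) and Fhl2 (-0.11 to 0.29) in EP against WT hearts. Many other members also turned over the settings in EP against WT hearts, among them Myl3 (-0.32 to 0.18) and Flnc (-0.12 to 0.20). Tpm1 in HA against WT hearts was 0.01 with all mice and -0.08 without HA mouse 2. Over all settings Fhl2 ran from -0.22 to 0.08 and Mybpc3 from -0.30 to 0.03 in that comparison. Cryab ran from -0.21 to 0.02 and Myom2 from -0.58 to 0.01.

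The replicate numbers were shared between genotypes, and the data do not settle whether they pair the mice. The correlations of same-numbered mice ran from -0.12 to 0.09 for HA against WT hearts and from -0.07 to 0.58 for EP against WT hearts. Not every mouse correlated best with its own number, though mice 1 and 2 did in EP against WT hearts (0.58 and 0.41). With 3 mice per genotype such correlations cannot exclude a pairing. With a replicate block 0 members were called in every comparison. With 3 mice per genotype an exact permutation test could not go below 0.1, and the heart of HA mouse 2 had the fewest reads. The median over the members in EP against WT livers was -0.88 without WT mouse 2 and -2.47 without WT mouse 3.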
